A study of Mus musculus with 6 samples.

Results

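Tcn2, the gene of the plasma carrier of vitamin B12, was examined together with 7 genes for its uptake at the cell surface and its handling inside the cell. The 8 genes were chosen by symbol to cover the path from uptake to the methionine synthase step: Tcn2 and Cd320, Lmbrd1 and Abcd4, Mmachc and Mmadhc, Mtr and Mtrr. All 8 were among the 16583 genes measured by name, each by 1 transcript cluster, which is the set of probes that reads one gene on the array. Tcn2 drew attention because of its difference between the groups on these same arrays, so its values are given as a description and were not tested. The other 7 were taken from the pathway.

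The cells were Neuro2a, a neuroblastoma line of the mouse with neuronal traits, grown in medium with fetal bovine serum. There were 6 arrays, 3 from cells given an empty vector and 3 from cells given pcDNA6.2-GW/EmGFP-miR plasmids that express microRNA-type RNA interference against USF1 and USF2, introduced with Lipofectamine 2000. How long after transfection RNA was taken, and what share of cells took up the plasmids, is not stated in the labels. The titles number the arrays as biological replicates without naming separate cultures, so p-values measure only how these samples vary, and that variation may be technical. In RNA from a whole culture, fewer cells with a transcript and less of it per cell cannot be told apart.

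Vitamin B12, or cobalamin, enters most mammalian cells bound to transcobalamin, the TCN2 protein, through its receptor CD320. The complex is broken down in the lysosome, and LMBRD1 and ABCD4 let the freed vitamin out. In the cytosol MMACHC strips the upper ligand of the vitamin and MMADHC directs it to the cytosol or the mitochondrion. In the cytosol it serves methionine synthase, MTR, which turns homocysteine into methionine with a methyl group from folate, and MTRR restores MTR when its cobalamin is oxidised. USF1 and USF2 are transcription factors that bind E-boxes, and the series asked which genes, lysosomal ones above all, lie downstream of them.

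Since the factors knocked down bind E-boxes, the windows around the start sites of the members are shown with such letters marked. RefSeq windows of build GRCm38.p6, from 250 bases before to 50 after a start site, were found for 5 of the 8 genes (8 windows). Tcn2, Abcd4 and Mmadhc had no entry. The core E-box CACGTG, the same on both strands, was in 0 of the 8 windows and in 7.15% of all 32851 windows. The looser form CANNTG, which includes the core, was in 5 of the 8 and in 72.3% of all windows, so its presence is common. One window from each step is printed 5′ to 3′ on the strand of the gene, the one farther upstream where a gene has more than one, with each CANNTG match in capitals. A match is only a description of letters, and its absence concerns these windows alone.
Cd320, chr17:33842841-33843140, plus strand: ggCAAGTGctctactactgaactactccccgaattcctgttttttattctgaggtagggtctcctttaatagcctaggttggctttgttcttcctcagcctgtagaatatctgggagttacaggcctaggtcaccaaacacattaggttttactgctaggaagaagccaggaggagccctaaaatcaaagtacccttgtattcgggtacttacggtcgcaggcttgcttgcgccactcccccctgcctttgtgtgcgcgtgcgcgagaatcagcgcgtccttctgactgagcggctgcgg
Lmbrd1, chr1:24678294-24678593, plus strand: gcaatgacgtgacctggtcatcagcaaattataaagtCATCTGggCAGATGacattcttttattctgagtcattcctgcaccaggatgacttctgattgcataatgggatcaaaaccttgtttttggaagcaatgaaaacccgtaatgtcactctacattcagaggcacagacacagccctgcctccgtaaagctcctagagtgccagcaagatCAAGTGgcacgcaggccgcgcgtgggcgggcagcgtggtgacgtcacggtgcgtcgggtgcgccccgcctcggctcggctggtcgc
Mmachc, chr4:116708336-116708635, minus strand: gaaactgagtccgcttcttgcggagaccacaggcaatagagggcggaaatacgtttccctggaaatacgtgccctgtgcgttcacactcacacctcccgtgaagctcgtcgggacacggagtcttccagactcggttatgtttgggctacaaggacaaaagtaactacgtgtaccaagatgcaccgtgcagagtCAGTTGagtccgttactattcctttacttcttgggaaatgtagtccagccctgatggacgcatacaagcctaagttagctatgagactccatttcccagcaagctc
Mtr, chr13:12258064-12258363, minus strand: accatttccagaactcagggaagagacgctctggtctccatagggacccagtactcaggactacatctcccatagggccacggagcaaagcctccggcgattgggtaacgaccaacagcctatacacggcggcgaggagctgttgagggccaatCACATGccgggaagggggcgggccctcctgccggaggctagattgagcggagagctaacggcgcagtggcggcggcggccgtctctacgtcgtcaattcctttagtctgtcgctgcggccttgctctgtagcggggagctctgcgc
The window of Lmbrd1 held 3 matches and the other printed windows held 1 each. Both windows of Mtrr, and the second of Lmbrd1, held 0.

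The deposited values are on a scale read as log2 and are relative to the median of the 6 arrays for each cluster. Arrays can be set against each other for a gene, whereas genes cannot be ranked by level. The rounding of the values still showed whether a signal lay at 8 to 16 (the brighter class) or at 4 to 8 (the dimmer class) on the log2 scale before centring. Of the 8 members, 7 lay in the brighter class and Abcd4 in the dimmer one. Of 13 measured neuroblastoma markers 9 were in the brighter class, against 2 of 9 for endothelium, 0 of 8 for macrophages, 1 of 8 for fibroblasts and 0 of 8 for glia. The precision is limited by the number of arrays, with a median standard error of a change of 0.056 on the log2 scale. The standard deviation over all clusters was 0.159 on knockdown array 2 and 0.0531 to 0.0780 on the other arrays. Knockdown array 2 had a median of 0.071 over the dimmer clusters and of -0.028 over the brighter ones. On the other arrays these medians ran from -0.023 to 0.0021 and from 4.0e-05 to 0.0074.

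The targets serve as the check of the labels. Usf1 had relative log2 signals of 0.18, 0.32 and 0.43 on empty vector arrays 1, 2 and 3 and of -0.28, -0.18 and -0.26 on knockdown arrays 1, 2 and 3. Usf2 had 0.12, 0.28 and 0.27 with empty vector and -0.22, -0.13 and -0.12 with knockdown. Both were lower on every knockdown array than on every empty vector array. The changes were -0.55 ± 0.07 and -0.38 ± 0.06 (SE, n = 3 per group), with limma adjusted p over all genes of 0.320 and 0.348, so neither passed 0.05.

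Tcn2 was lower in the knockdown cells, while its receptor Cd320 was at nearly the same signal on all 6 arrays. Tcn2 (cluster 10383799) had relative log2 signals of 0.11, 0.21 and 0.15 on empty vector arrays 1, 2 and 3. On knockdown arrays 1, 2 and 3 it had -0.14, -0.16 and -0.11. All 3 knockdown arrays were low and all 3 empty vector arrays high, with a gap of 0.23 between the groups. The empty vector mean was 0.16 ± 0.05 (SD, n = 3) and the knockdown mean -0.14 ± 0.02 (SD, n = 3). The difference, knockdown minus empty vector, was -0.29 ± 0.04 (SE) on the log2 scale or 0.815-fold. Against the empty vector mean the knockdown arrays lay at -0.29, -0.32 and -0.27. With 1 array left out at a time the difference was between -0.32 and -0.27. Of all genes, 19 had a lower change than Tcn2, and 5 had a change above 0 that was larger than its size.

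Cd320 (cluster 10444046), the cell-surface receptor for the loaded carrier, had 3.0e-05, -3.0e-05 and 0.025 on empty vector arrays 1, 2 and 3 and -0.0080, -0.0017 and 6.6e-04 on knockdown arrays 1, 2 and 3. The groups overlapped, and only empty vector array 3 stood slightly higher. Its whole range over the arrays was 0.033, where the median gene ranged over 0.19, and 0.241% of genes had a smaller range. The change was -0.011 ± 0.039 (SE, n = 3 per group; 95% interval -0.10 to 0.078; limma adjusted p = 0.996), and without empty vector array 3 it was -0.0030. The standard error is larger than the spread of its arrays because limma draws each gene's variance toward that of all genes.

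**Figure D1:**
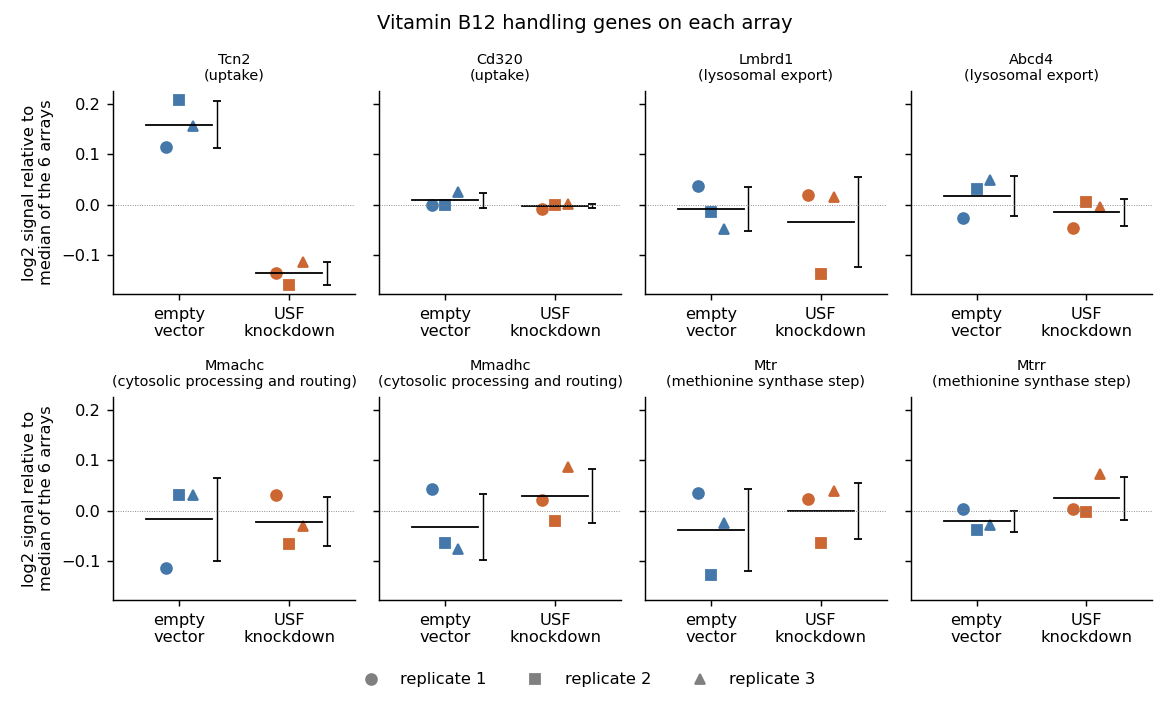
Each panel shows 1 gene, with the log2 signal relative to the median of the 6 arrays on the vertical axis, points for the 3 arrays of each group (shape gives the replicate number), a line for the group mean and a bar for ± 1 SD. The groups are apart for Tcn2 alone among the 8, with empty vector at 0.11 to 0.21 and knockdown at -0.16 to -0.11.

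The lysosomal export pair showed no difference that passed the test. Lmbrd1 (cluster 10345141), a lysosomal membrane protein that works with ABCD4, had 0.037, -0.014 and -0.049 with empty vector and 0.018, -0.14 and 0.014 with knockdown. Knockdown array 2 was the lowest of the 6, and the other 2 knockdown arrays lay within the range of the empty vector arrays. The change was -0.027 ± 0.056 (SE, n = 3 per group; 95% interval -0.16 to 0.10; limma adjusted p = 0.996), and without knockdown array 2 it was 0.025. Abcd4 (cluster 10401488), the ABC transporter of this step, had -0.027, 0.030 and 0.049 with empty vector and -0.046, 0.0052 and -0.0052 with knockdown. The groups overlapped, with knockdown array 1 lowest and empty vector array 3 highest. The change was -0.033 ± 0.043 (SE, n = 3 per group; 95% interval -0.13 to 0.067; limma adjusted p = 0.996), and with 1 array left out it ran from -0.055 (without empty vector array 1) to -0.017 (without empty vector array 3).

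The cytosolic processing genes also overlapped between the groups. Mmachc (cluster 10515363), the decyanating and dealkylating chaperone, had -0.11, 0.031 and 0.030 with empty vector and 0.031, -0.065 and -0.030 with knockdown. Empty vector array 1 was the lowest of the 6. The change was -0.0045 ± 0.055 (SE, n = 3 per group; 95% interval -0.13 to 0.12; limma adjusted p = 0.999). Leaving out empty vector array 2 or 3 turned it to 0.020 or 0.019, and leaving out knockdown array 2 turned it to 0.017. Mmadhc (cluster 10482486), which directs the vitamin to its compartment, had 0.042, -0.063 and -0.076 with empty vector and 0.021, -0.021 and 0.087 with knockdown. Knockdown array 3 was the highest and empty vector array 3 the lowest. The change of 0.061 ± 0.052 (SE, n = 3 per group; 95% interval -0.059 to 0.18; limma adjusted p = 0.996) was the largest upward one of the 8 genes with all 6 arrays. Without empty vector array 3 it was 0.039, under Mtr at 0.046 and Mtrr at 0.042, and without knockdown array 3 it was 0.032.

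At the methionine synthase step both genes had changes above 0 that did not pass the test. Mtr (cluster 10407709), the enzyme itself, had 0.034, -0.13 and -0.024 with empty vector and 0.024, -0.064 and 0.039 with knockdown. Replicate 2 was the lowest array of each group. The change was 0.038 ± 0.056 (SE, n = 3 per group; 95% interval -0.091 to 0.17; limma adjusted p = 0.996), and it was -0.0061 without empty vector array 2. Mtrr (cluster 10410393), the reductase that reactivates the enzyme, had 0.0031, -0.038 and -0.029 with empty vector and 0.0033, -0.0031 and 0.073 with knockdown. Knockdown array 3 was the highest of the 6, and the groups overlapped. The change was 0.046 ± 0.043 (SE, n = 3 per group; 95% interval -0.054 to 0.15; limma adjusted p = 0.996), and without knockdown array 3 it was 0.021.

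**Figure D2:**
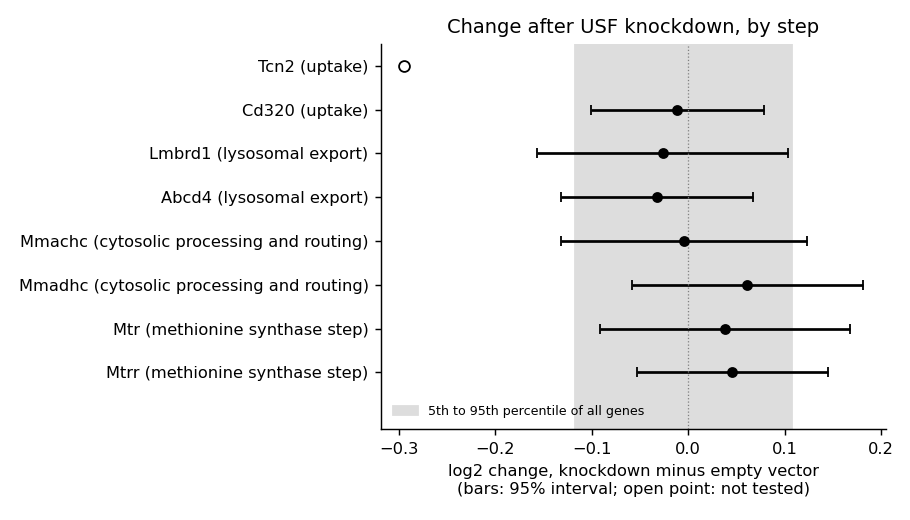
The horizontal axis gives the log2 change, knockdown minus empty vector, of each gene in the order of the pathway, with bars for the 95% interval from limma for the 7 tested genes, an open point for Tcn2, which was not tested, and a grey band from the 5th to the 95th percentile of the change of all genes (-0.12 to 0.11). The changes of the 7 other genes lie inside the band, though some of their 95% intervals reach past it, and Tcn2 lies below it at -0.29.

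Over the 7 genes other than Tcn2, 4 had a change below 0 and 3 above 0, with a median of -0.0045, beside a median of -6.6e-04 over all genes. Without knockdown array 2 these counts were 2 below and 5 above, and the median turned to 0.025. With all arrays the order of the changes was Tcn2, Abcd4, Lmbrd1, Cd320, Mmachc, Mtr, Mtrr and Mmadhc, and among the last 7 neighbours in this order differed by less than the standard errors of their changes. In limma 0 of the 7 passed an adjusted p of 0.05 and 0 were at an unadjusted p under 0.05. The same rules called 0.00603% and 4.25% of all genes, so a count of 0 among 7 is near the background. Groups that do not overlap were found for 0 of the 7 and for 10.3% of all genes, 5.95% with knockdown lower and 4.33% with knockdown higher. The 95% intervals of the 7 ran from -0.16 at the lowest to 0.18 at the highest, or 0.897-fold to 1.13-fold. Tcn2 was chosen for its change on these same arrays, so its size is no measure for the others. Differences that lie within these intervals could not be told from no change with 3 arrays per group. The adjusted test did not call the larger changes of Usf1 (-0.55) and Usf2 (-0.38) either. Its count of 0 among the 7 therefore does not show which sizes it could detect.

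**Figure D3:**
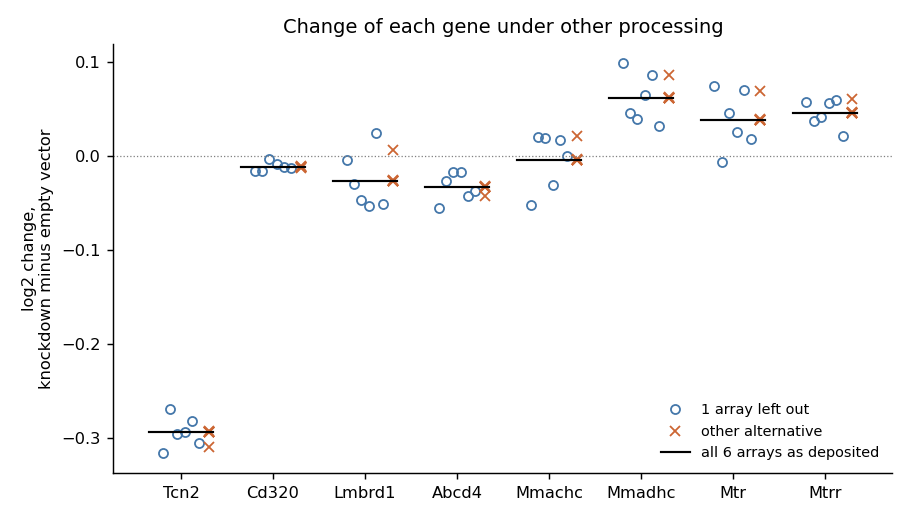
For each of the 8 genes the vertical axis gives the log2 change, knockdown minus empty vector, with a line for all 6 arrays as deposited, circles for fits with 1 array left out and crosses for the other processing alternatives. Tcn2 lies between -0.32 and -0.27, while Lmbrd1, Mmachc and Mtr have points on both sides of 0.

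The wider pathway was read from lists of textbook genes. Of 56 genes listed, 48 were measured by name, and 0 passed an adjusted p of 0.05 in limma (adjusted p from 0.996 to 0.999). At an unadjusted p under 0.05 there was 1, or 2.08%, against 4.25% of all genes. Changes above 0 were seen for 29 and below 0 for 19, with a median of 0.017. Without knockdown array 2 the counts were 26 and 22 and the median 0.011. In that fit 2 of the 48 were at an unadjusted limma p under 0.05, both higher. Of all 16583 genes 1248 were, in either direction, and 831 of these were lower.

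Genes of the mitochondrial branch, where adenosylcobalamin serves methylmalonyl-CoA mutase in the breakdown of propionate, had changes below 0 for 7 of 7 measured, with a median of -0.044. None passed, with limma adjusted p of 0.996 for each and 0 at an unadjusted p under 0.05. Pcca, a subunit of propionyl-CoA carboxylase, had 0.036, 0.015 and 0.0015 with empty vector and -0.060, -0.39 and -0.0015 with knockdown. Its low mean came mostly from knockdown array 2, and the change of -0.17 ± 0.09 (SE, n = 3 arrays in each group, limma adjusted p = 0.996) was -0.048 without that array. Mmaa, a chaperone of the mutase, had a change of -0.084 ± 0.068 (SE), which was -0.034 without knockdown array 2. Without that array 7 of 7 were still below 0, with a median of -0.029.

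The folate cycle, which hands its methyl group to MTR, had 13 of 18 measured genes above 0 and 5 below, with a median of 0.026 and 0 calls in limma. Tyms, thymidylate synthase, had 0.0050, 0.083 and 0.11 with empty vector and -0.056, -0.064 and -0.0050 with knockdown. The groups lay apart by little, and the change was -0.11 ± 0.05 (SE, n = 3 per group, limma unadjusted p = 0.0499, adjusted p = 0.996). Mthfd1 (0.032 ± 0.040, SE) and Slc25a32 (0.094 ± 0.045) were higher without overlap, each with a limma adjusted p of 0.996. Groups that do not overlap were found for 10.3% of all genes. Without knockdown array 2 the median of the folate list was 0.017 and Tyms was no longer at an unadjusted p under 0.05. In that fit 2 of the 18 were, both higher. Of all 16583 genes 1248 were, in either direction, and 831 of these were lower. In the methionine cycle and transsulfuration list 9 of 15 were above 0 and 6 below, with a median of 0.0097, which was 0.019 without knockdown array 2. Its members with the smallest p were Mri1, an enzyme of methionine salvage (0.078 ± 0.049, SE), and Mat1a, a methionine adenosyltransferase (0.063 ± 0.054), each with a limma adjusted p of 0.996. Mri1 was at 0.037 without knockdown array 3, and Mat1a at 0.026 without knockdown array 2.

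Genes for uptake of the vitamin in gut and kidney all lay in the dimmer class (4 of 4 measured), whose clusters had a median of 0.071 on knockdown array 2. The changes of these genes were above 0 for 4 of 4 with all arrays and for 1 of 4 without knockdown array 2. Lrp2, the endocytic receptor megalin, had 0.086 ± 0.092 (SE) and Cubn, its partner cubilin, 0.039 ± 0.048 (limma adjusted p = 0.996 for each). Among Abcc1, an exporter of the vitamin, and the genes tied to Mmachc control, 3 of 4 were above 0. Abcc1 had 0.061 ± 0.048 (SE) and Hcfc1, a transcriptional cofactor whose loss lowers Mmachc, 0.053 ± 0.048 (limma adjusted p = 0.996 for each). Abcc1 was at 0.029 without knockdown array 2, and Lrp2 at -0.022.

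**Figure D4:**
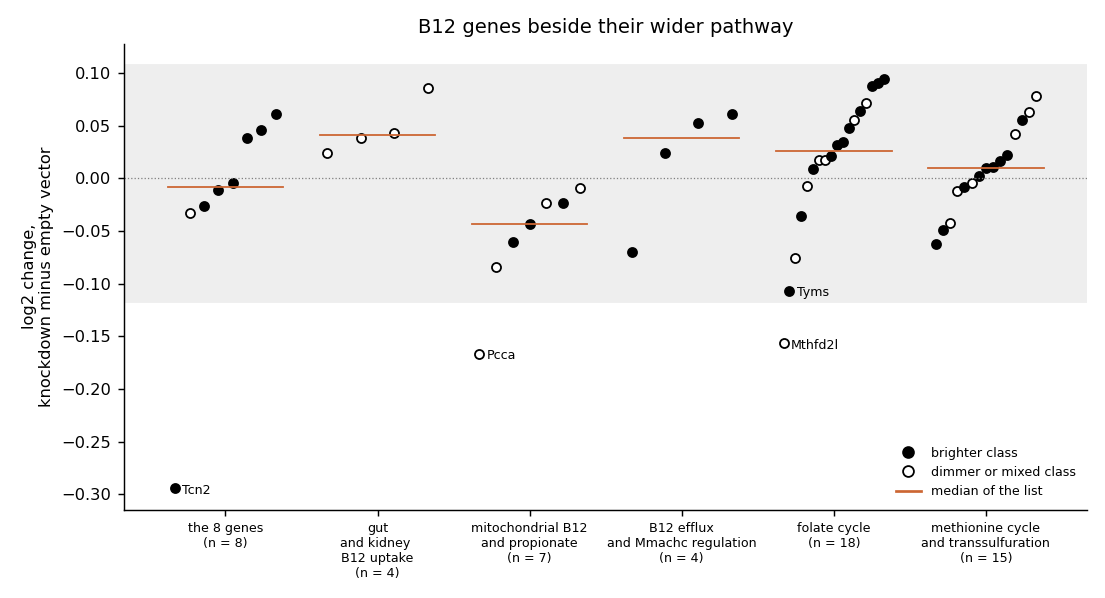
Each point is 1 gene, grouped by list along the horizontal axis, with the log2 change, knockdown minus empty vector, on the vertical axis; filled points are in the brighter class, lines mark list medians and the grey band runs from the 5th to the 95th percentile of all genes. Tcn2 at -0.29 is the lowest point, and Pcca, at -0.17, and Mthfd2l, at -0.16, lie below the band too. Mthfd2l is in the dimmer class and its groups overlapped. Against the empty vector mean its knockdown arrays 1, 2 and 3 lay at -0.11, -0.36 and -0.0015.

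Tcn2 was also set beside the genes with the most similar values. By the root mean square difference of relative log2 signal over the 6 arrays, the 5 nearest genes were Dtx3 (0.024, Pearson r = 0.995), Tmc8 (0.026, r = 0.993), Zhx2 (0.037, r = 0.971), Rab31 (0.042, r = 0.977) and Stat5a (0.043, r = 0.981). These were chosen for likeness among all genes, so the coefficients over 6 arrays in 2 groups are a description only. Stat5a, a transcription factor of cytokine signalling and the farthest of the 5, had 0.080, 0.20 and 0.11 with empty vector and -0.11, -0.080 and -0.086 with knockdown. Like Tcn2, Dtx3 and Tmc8 it was highest on empty vector array 2, while Zhx2 and Rab31 were highest on empty vector array 3. Among the other 7 members the smallest such difference from Tcn2 was 0.13, for Abcd4 (r = 0.575), and the largest 0.19, for Mmadhc (r = -0.564).

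**Figure D5:**
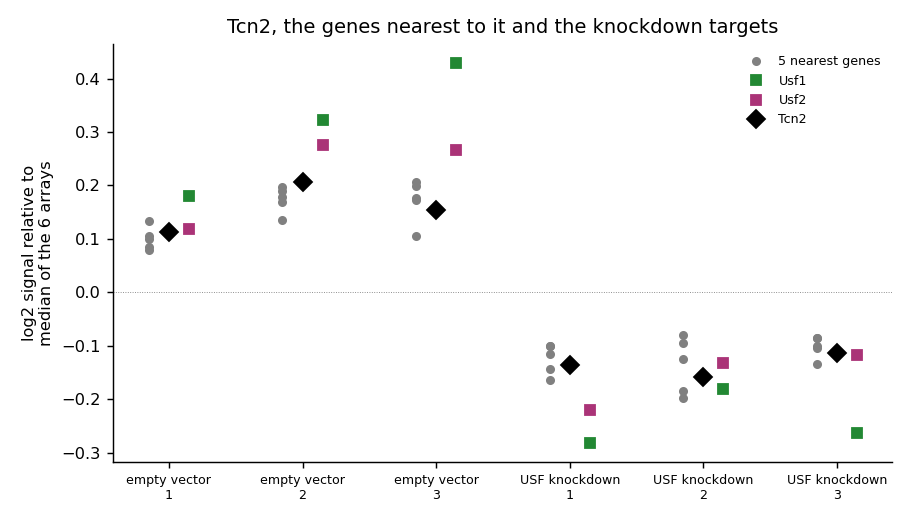
The 6 arrays stand along the horizontal axis and the vertical axis gives the log2 signal relative to the median of the 6 arrays, with diamonds for Tcn2, grey points for the 5 genes nearest to it and squares for Usf1 and Usf2. Tcn2 lies between 0.11 and 0.21 on the empty vector arrays and between -0.16 and -0.11 on the knockdown arrays, and both targets lie on the same sides.

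Endothelial cells and macrophages make much transcobalamin, so their markers were read beside Tcn2. The summed relative log2 signal of 9 measured endothelial markers was between -0.50 and 0.15 on the empty vector arrays and between -0.48 and 1.0 on the knockdown arrays. That of 8 macrophage markers was between -0.66 and 0.026 and between -0.43 and 0.79. In both lists the highest sum was on knockdown array 2 and the groups overlapped. Of these markers 7 of 9 and 8 of 8 were in the dimmer class, whose clusters had a median of 0.071 on that array. The part of this shift in the sums was not tested. The medians of the changes were 0.049 for endothelium, 0.057 for macrophages, 0.049 for fibroblasts, 0.076 for glia and -0.031 for the neuroblastoma list, with 0 calls in limma in each. Without knockdown array 2 they were -0.023, 0.029, -0.019, 0.035 and 0.013, so those of endothelium, fibroblasts and the neuroblastoma list turned. In the neuroblastoma list 6 of 13 changes were above 0 and 7 below, and 4 genes had groups that did not overlap, as had 10.3% of all genes. Lower without overlap were Dbh, the enzyme that makes noradrenaline (-0.25 ± 0.05, SE, n = 3 per group, limma adjusted p = 0.759), Elavl4, a neuronal RNA-binding protein (-0.13 ± 0.04, adjusted p = 0.996), and Gap43, a growth cone protein (-0.080 ± 0.043, adjusted p = 0.996). Nefm, a neurofilament subunit, was higher without overlap (0.10 ± 0.05, limma adjusted p = 0.996). The part of these markers in the values of Tcn2 was not tested.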

How the data were processed

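RNA of 6 Neuro2a samples was measured on Affymetrix Mouse Gene 1.0 ST arrays after amplification (Ambion WT Expression Kit) and labelling (Affymetrix WT Terminal Labeling Kit), per the labels' protocols. The authors deposited 1 table of 22891 transcript clusters on a scale read here as log2, centred on each cluster's median over the 6 arrays. Background correction, normalization and genome build were not given in the sources used here. The log2 reading and the brightness classes rest on differences between arrays being whole multiples (tolerance 0.05 of a step) of 4.77e-07 or 9.54e-07, the single-precision steps of numbers at 4 to 8 and at 8 to 16. By this 9972 clusters were brighter and 12904 dimmer, and a few can be placed wrongly.

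Names came from the platform annotation. The 18087 clusters with 1 symbol were averaged to 16583 genes; 1145 with several symbols and 3659 unnamed ones were left out. Groups came from sample titles. Knockdown minus empty vector was fitted in R 4.3.3 with limma 3.58.1 (lmFit, eBayes), adjusted by Benjamini-Hochberg over all genes at 0.05, and the script was tested on simulated data. Alternatives were a replicate block, quantile normalization, median centring, robust variance, clusters unaveraged, clusters with several symbols kept, the brighter class alone and each array left out. Members and lists were chosen with earlier results of these data known. Named genes were all members, both targets, genes of the wider pathway lists at an unadjusted p under 0.05 (otherwise the 2 with the smallest p), the measured gene nearest each member on either side, and the 5 nearest in value to Tcn2. Dbh, Elavl4, Gap43, Nefm, Mthfd1, Slc25a32 and Mthfd2l were named after their values were seen.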

Additional observations from a re-analysis of the deposited data

How the results depend on the processing

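The replicate block, robust variance, the brighter class alone, clusters with several symbols kept and clusters unaveraged leave a member's change as it is, so they cannot turn its sign. Across quantile normalization, median centring and each array left out, Lmbrd1 turned sign in 2 fits, Mmachc in 4 and Mtr in 1. Median centring turned none of them, and Mtr turned only without empty vector array 2. Cd320, Abcd4, Mmadhc and Mtrr did not turn. Under quantile normalization the changes of Lmbrd1 and Mmachc turned to 0.0059 and 0.021. With 1 array left out the change of Lmbrd1 ran from -0.053 to 0.025, that of Mmachc from -0.052 to 0.020 and that of Mtr from -0.0061 to 0.074. Of the 7 genes tested, 0 passed in limma under each alternative run (lowest adjusted p 0.753), with 0 at an unadjusted p under 0.05 each time. Abcd4 could not be fitted with the brighter class alone. Over all genes limma called 1 gene, and between 0 and 1 with 1 array left out: it was 0 when an empty vector array or knockdown array 1 was left out. At an unadjusted p under 0.05 these fits had between 369 and 1248 genes. With the replicate block 0 genes passed in limma, with 636 at an unadjusted p under 0.05. Whether replicate numbers pair the arrays was not settled. Deviations from the group means correlated at 0.0031, 0.082 and 0.036 for the same number and at -0.094 to 0.054 for other numbers. Not every array correlated best with its own number. The cause of these differences was not tested. With 3 arrays per group, and a signal whose distance from background is not kept, small changes cannot be read.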

Other observations

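The genes that lie next to the members on the chromosomes, by the RefSeq gene table of assembly GRCm38.p6, were read as well. Of the 16 nearest measured neighbours, 0 passed an adjusted p of 0.05 in limma. At an unadjusted p under 0.05 there were 2, by the rule that called 4.25% of all genes. Groups did not overlap in either direction for 5 of the 16, beside 10.3% of all genes. All 5 were higher, a direction read after the values were seen, and 4.33% of all genes were higher without overlap. Slc35e4 and Pes1, on either side of Tcn2, were among these 5. Slc35e4, a member of a solute carrier family, had -0.034, -0.0082 and -0.075 with empty vector and 0.010, 0.070 and 0.0082 with knockdown, a change of 0.068 ± 0.043 (SE, n = 3 arrays in each group, limma adjusted p = 0.996). Pes1, a ribosome assembly factor, had -0.033, -0.023 and -0.0014 with empty vector and 0.0014, 0.11 and 0.041 with knockdown. Its change of 0.070 ± 0.045 (SE) was 0.041 without knockdown array 2 (limma adjusted p = 0.996 with all arrays). Both neighbours of Tcn2 thus had values of the opposite sign to it. The other 3 were Daxx next to Cd320 (0.084 ± 0.047, SE, and 0.055 without knockdown array 2), Lin52 next to Abcd4 (0.13 ± 0.04) and Actn2 next to Mtr (0.14 ± 0.05), each with a limma adjusted p of 0.996. The value of Lin52 is the mean of 2 clusters, which were not read apart.

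Of the neighbours, Ccdc163 overlaps Mmachc and Fastkd3 overlaps Mtrr in that table. Ccdc163 had a change of -0.064 ± 0.072 (SE), which was -9.7e-04 without knockdown array 2, and Fastkd3 of 0.026 ± 0.040, each with a limma adjusted p of 0.996. Prdx1, a peroxiredoxin on the other side of Mmachc, had -0.070 ± 0.072 (SE, limma adjusted p = 0.996) and 0.011 without knockdown array 2, as the mean of 2 clusters.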
